A study of Homo sapiens with 6 samples.

Results

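The collagen genes are the genes whose symbol is COL, a collagen number, A and a chain number. This rule uses the symbol only and found 43 of the 16779 genes in the deposited tables. COL23A1 is not analysed here. RNA-seq was done on A549, an established human lung adenocarcinoma cell line, in 3 control libraries labelled wild type and 3 libraries labelled knockout of RN7SK, the gene of the small nuclear RNA 7SK that holds back the transcription elongation factor P-TEFb. No treatment or time is given for either group, and the labels do not say whether the knockout is 1 clone, whether cells were pooled or whether replicates came from separate cultures, so p-values measure only the spread between these libraries. RN7SK has no row in the tables used here, so the knockout itself could not be read from them. CDKN2A, a gene that A549 is known to have lost, had 963, 1005 and 923 counts in the control libraries and 0, 1 and 2 in the knockout libraries. CDKN2B, its neighbour and lost with it, had 216, 241 and 238 counts against 0, 1 and 0. The control libraries thus go against the label A549, and control and knockout below mean the libraries so labelled. A difference of cell source and an effect of the knockout cannot be told apart.

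Collagens are secreted or membrane proteins whose chains wind around each other into a helix rich in glycine and proline. Fibrillar collagens (types I, II, III, V, XI, XXIV and XXVII) build the cables of the stroma. Type IV builds the sheet of the basement membrane under an epithelium, type VII anchors that sheet to the stroma below, and type VI forms beaded filaments close to cells. The FACIT collagens sit on the surface of fibrils, the multiplexins (types XV and XVIII) lie in basement membrane zones, and a few types are anchored in the cell membrane. Many types are heterotrimers, so the chain genes of a type are set beside each other below. In lung the stromal collagens are made mostly by fibroblasts, and epithelial cells contribute to the basement membrane.

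The genes of the 6 type IV chains lie in 3 head-to-head pairs, each with a short stretch between its start sites. The stretches of 2 pairs are shown, because the chains of one moved in opposite directions and those of the other rose together (values below). In the pair of COL4A6 and COL4A5 only COL4A5 was tested. Sequences and coordinates are RefSeq's, build GRCh38.p14, written 5′ to 3′ on the plus strand. Capitals mark matches on either strand to the GC box, spelled GGGCGG, the CCAAT box, spelled by its name, and the TATA box, spelled TATAAA. None of the matches overlapped another.
COL4A1 and COL4A2, chr13:110307158-110307283: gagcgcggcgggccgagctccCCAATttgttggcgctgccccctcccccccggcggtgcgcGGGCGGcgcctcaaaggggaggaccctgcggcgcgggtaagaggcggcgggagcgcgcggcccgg
COL4A4 and COL4A3, chr2:227164489-227164623: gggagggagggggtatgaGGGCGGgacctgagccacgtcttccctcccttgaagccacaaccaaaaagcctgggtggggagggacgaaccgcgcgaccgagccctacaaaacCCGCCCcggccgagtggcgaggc
The stretch between COL4A1 and COL4A2 is 126 bases long, holds 80.2% G or C, and has 1 GC box and 1 CCAAT box. Among the 27305 promoters of the RefSeq table, windows of that length hold a GC box in 34.6% and a CCAAT box in 21.9%. The stretch between COL4A4 and COL4A3 is 135 bases long, holds 68.1% G or C, and has 2 GC boxes, 1 on each strand, with a background of 35.6%. No TATA box was found in either, and a match or its absence describes only the letters in these windows.

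The 250 bases before the start of 3 well expressed members that changed by more than 2-fold are shown in the same way, each on the strand of its gene.
COL7A1, minus strand, chr3:48595330-48595579: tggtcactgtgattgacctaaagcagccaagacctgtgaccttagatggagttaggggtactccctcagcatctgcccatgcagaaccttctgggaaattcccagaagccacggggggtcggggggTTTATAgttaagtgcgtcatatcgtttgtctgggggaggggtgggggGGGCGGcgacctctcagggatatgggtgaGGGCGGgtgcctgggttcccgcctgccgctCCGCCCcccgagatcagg
COL6A2, plus strand, chr21:46097862-46098111: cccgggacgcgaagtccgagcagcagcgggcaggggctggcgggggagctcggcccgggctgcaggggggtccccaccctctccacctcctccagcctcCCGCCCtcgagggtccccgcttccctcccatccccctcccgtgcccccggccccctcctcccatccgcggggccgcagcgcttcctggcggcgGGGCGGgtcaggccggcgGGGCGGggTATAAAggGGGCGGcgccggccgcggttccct
COL5A1, plus strand, chr9:134641553-134641802: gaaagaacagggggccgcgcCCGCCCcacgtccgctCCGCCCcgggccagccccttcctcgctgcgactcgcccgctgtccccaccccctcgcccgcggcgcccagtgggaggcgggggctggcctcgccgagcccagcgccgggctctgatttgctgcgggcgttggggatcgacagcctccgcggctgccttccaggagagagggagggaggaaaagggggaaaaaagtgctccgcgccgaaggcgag
The COL7A1 window has 3 GC boxes and 1 TATA box on the other strand. The COL6A2 window has 4 GC boxes and 1 TATA box, which lies close to the start. The COL5A1 window has 2 GC boxes, both read on the other strand, and no TATA box. Among all promoters, 42.3% of windows of this length hold a GC box and 11.1% a TATA box. All 3 windows thus share the GC box, whichever direction the gene took.

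Most collagens with enough reads were higher in the knockout libraries, while COL6A2, COL4A5, COL4A1 and, on counts, COL18A1 fell. Of the 43 members, 25 passed the filter on low counts, which asks for about 10 counts (0.539 CPM, counts scaled to library size) in at least 3 libraries. By edgeR's quasi-likelihood test with an adjusted p under 0.05, 17 of the 25 rose, 4 fell and 4 did not pass. The background is high: of all 12929 genes tested, 42.0% rose and 43.0% fell, together 85.0%. The share of collagens called, 21 of 25, is therefore near the background, and so is the number whose groups did not overlap, 21 of 25 against 85.6%. By at least 2-fold, 13 rose and 1 fell, against 19.5% and 14.1% of all tested genes. The median log2 fold change was 1.12 over the 25 and -0.01 over all tested genes. COL5A3, COL8A1, COL13A1, COL15A1, COL20A1, COL21A1 and COL26A1 passed the filter through the knockout libraries alone, so they had to be higher there. COL4A3 and COL4A4 also needed the knockout libraries to pass, as only 1 and 2 control libraries reached the filter level. Over the 15 members above the filter level in all 6 libraries, 8 rose, 4 fell and 3 did not pass, with a median of 0.13, against 40.2% and 44.2% of the 11673 genes of that kind.

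**Figure D1:**
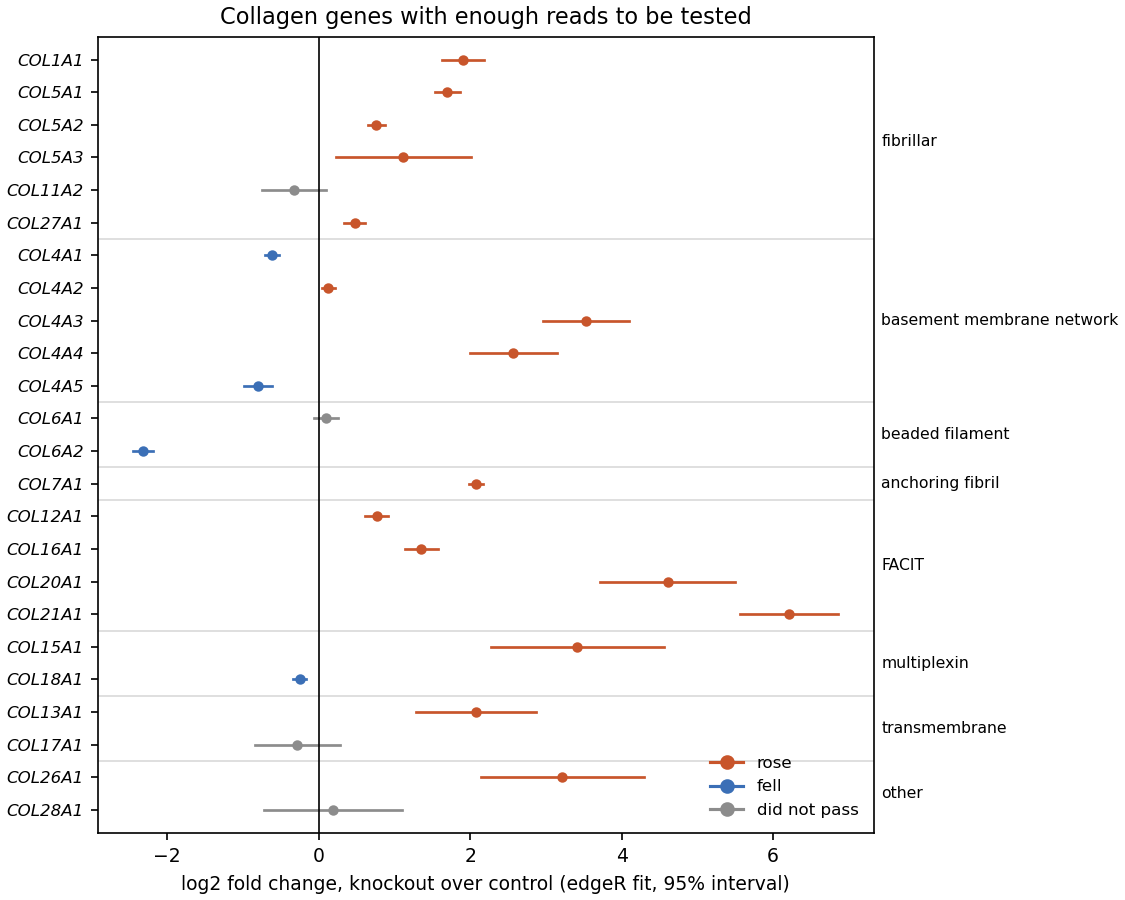
Log2 fold change, knockout over control, of 24 of the 25 tested collagen genes, grouped by structural class. Points are edgeR estimates, lines are 95% intervals, and colour gives the call. COL8A1 is left out because its control libraries hold 0 counts. COL6A2 lies farthest to the left at -2.32, and COL21A1 farthest to the right.

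Collagen transcripts made up a small and somewhat larger share of the knockout libraries. All 43 members together gave 1445, 1407 and 1527 CPM in control and 1674, 1711 and 1706 CPM in knockout libraries, or 0.145% ± 0.00603 and 0.171% ± 0.00265 of the counts (SD, n = 3). The groups did not overlap. COL7A1 alone went from a mean of 100.6 to 424.6 CPM, a larger gain than that of the total (1460 to 1697 CPM). The other members together thus had a lower mean in knockout than in control libraries. Per length, in FPKM, COL18A1 was the most abundant collagen in both groups and COL4A2 the next. In control libraries COL6A2, COL4A1 and COL7A1 followed, and in knockout libraries COL7A1, COL5A2 and COL4A1. COL7A1, the chain of the anchoring fibril, went from 5.39% ± 0.151 to 19.8% ± 0.1 of the summed collagen FPKM. COL6A2, a chain of the beaded filament, went from 10.6% ± 0.500 to 1.85% ± 0.0436. The basement membrane chains COL4A1 and COL4A2 together went from 29.3% ± 0.208 to 25.4% ± 0.0577, and COL18A1 from 42.1% ± 0.416 to 34.7% ± 0.462. The fibrillar collagens took 5.87% ± 0.0252 in control and 9.46% ± 0.441 in knockout libraries. For each of these shares the libraries of a group lay close together and the groups apart. The shares depend on the gene length behind each FPKM. For COL18A1 that length was 6808 bases in control and 6063 in knockout libraries, and its part in the shares was not tested.

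**Figure D2:**
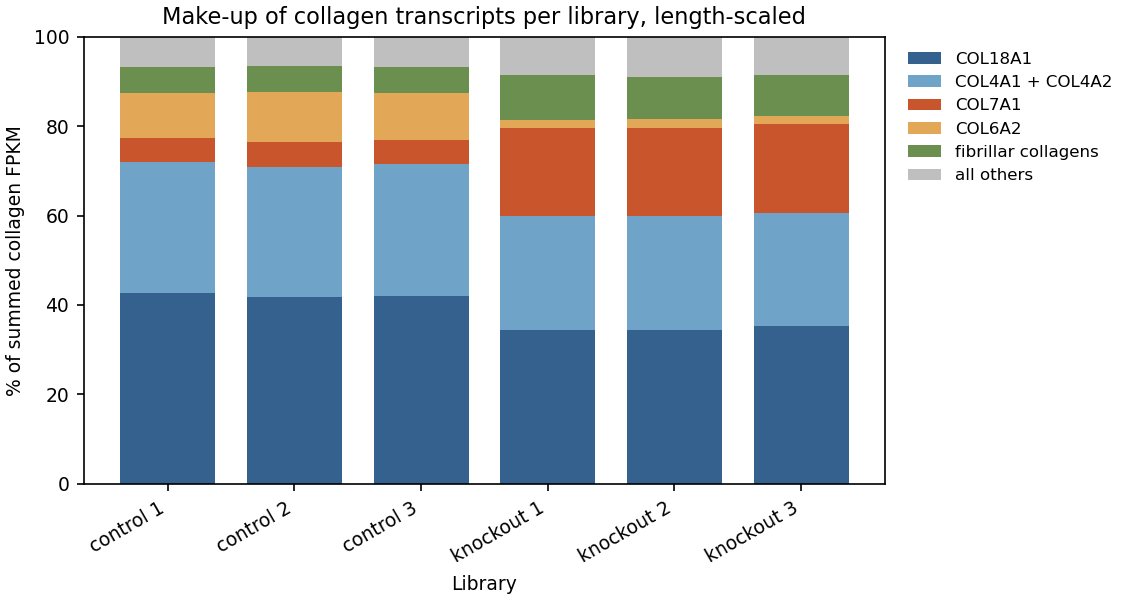
Share of the summed collagen FPKM (percent, vertical axis) in each of the 6 libraries (horizontal axis), by gene or class. The COL7A1 block is 5.39% on average in control and 19.8% in knockout libraries, while the COL6A2 block shrinks from 10.6% to 1.85%. The gene length behind FPKM differs between the groups for COL18A1.

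COL7A1, on chromosome 3 at 48564073 to 48595329, encodes the only chain of type VII collagen, whose anchoring fibrils hold stratified and airway epithelia to the tissue below. Its level was 96.7, 100.6 and 104.3 CPM in control and 416.1, 427.6 and 430.2 CPM in knockout libraries. All knockout libraries lay far above all control libraries, with a small spread in each group. COL7A1 rose 4.22-fold, by 2.08 ± 0.045 on the log2 scale (SE; edgeR quasi-likelihood adjusted p = 1.77e-29). The recovered gene length behind its FPKM was 9340 bases in both groups, and its mean FPKM went from 10.5 to 45.1.

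**Figure D3:**
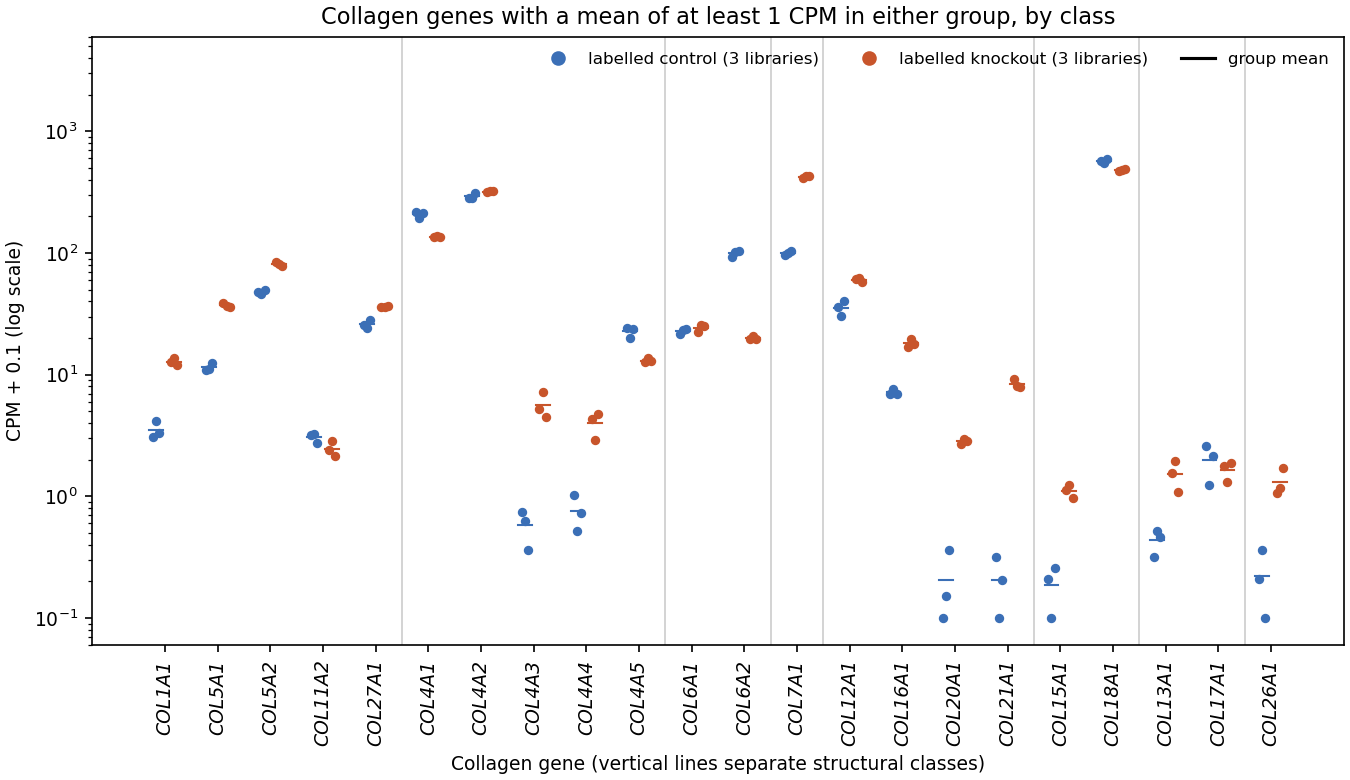
Level in each library (points, CPM + 0.1 on a log scale, vertical axis) of the 22 collagen genes that averaged 1 CPM or more in either group (horizontal axis), with the group mean as a bar. COL7A1 goes from 100.6 to 424.6 CPM and COL6A2 from 99.3 to 19.9 CPM, and COL18A1 is the highest of all in both groups.

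The type IV chains of the basement membrane did not move as one. COL4A1 and COL4A2, which form the common network together, lie head to head on chromosome 13 (110148963 to 110307157 and 110307284 to 110513209). COL4A1 was at 215.7, 194.9 and 214.4 CPM in control and 135.0, 138.2 and 135.4 CPM in knockout libraries. Its groups were well apart, and it fell by 0.61 ± 0.047 on the log2 scale, 1.53-fold (edgeR adjusted p = 5.31e-14). COL4A2 was at 284.6, 284.1 and 309.9 CPM in control and 315.1, 321.8 and 323.2 CPM in knockout libraries. The gap between its groups was narrow, and it rose by 0.13 ± 0.043, 1.09-fold (edgeR adjusted p = 0.00738). Without control replicate 1 the COL4A2 change was 0.10 with an adjusted p of 0.0616, which does not pass, so this call did not hold under every choice of libraries. The ratio of COL4A1 to COL4A2 in FPKM was 0.314, 0.284 and 0.287 in control and 0.177, 0.178 and 0.173 in knockout libraries, with no overlap (exact permutation p = 0.1, two-sided, the smallest that 3 against 3 allow; 0.125 adjusted over the 5 chain ratios compared, as for each other ratio with p = 0.1).

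COL4A3, COL4A4 and COL4A5 form the network known from kidney glomerulus and lung alveolus. COL4A3 and COL4A4 lie head to head on chromosome 2 (227164624 to 227314792 and 226967360 to 227164488). COL4A3 had 12, 10 and 5 counts in control and 96, 119 and 72 in knockout libraries, a ratio of 11.7 (95% counting interval 7.87 to 18.1; edgeR adjusted p = 1.69e-13). COL4A4 had 17, 8 and 12 counts in control and 79, 47 and 76 in knockout libraries, a ratio of 6 (4.21 to 8.77; edgeR adjusted p = 3.56e-10). Both rose from levels under 1 CPM, and for neither did the groups overlap. To pass the filter both needed the knockout libraries, with 1 control library at its level for COL4A3 and 2 for COL4A4. COL4A5, on the X chromosome at 108439838 to 108697545, was at 24.0, 20.1 and 23.8 CPM in control and 12.5, 13.5 and 12.9 CPM in knockout libraries. It fell by 0.80 ± 0.090, 1.74-fold (edgeR adjusted p = 6.73e-10). COL4A6, whose start lies 379 bases from that of COL4A5, had 4 to 10 counts a library and was not tested. The ratio of COL4A3 to COL4A4 in FPKM overlapped between groups (1.18 ± 0.632 and 2.25 ± 1.22, exact permutation p = 0.3, 0.3 adjusted), and that of COL4A5 to COL4A1, both of which fell, was 0.233 ± 0.00979 and 0.205 ± 0.00526 (exact permutation p = 0.1, 0.125 adjusted). The 3 chains of this network thus split, 2 rising from near the detection limit and the more abundant one falling.

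Type VI collagen needs the chains COL6A1 and COL6A2 and one more, most often COL6A3. COL6A2, on chromosome 21 at 46098112 to 46132848, was at 93.3, 101.1 and 103.4 CPM in control and 19.4, 20.6 and 19.7 CPM in knockout libraries. The libraries of each group lay close together and the groups far apart. COL6A2 fell by 2.32 ± 0.064 on the log2 scale, 4.99-fold (edgeR adjusted p = 1.61e-26), the only member to fall by at least 2-fold. COL6A1, its neighbour 93.1 kb away on chromosome 21 (45981770 to 46005048), was at 21.3, 23.0 and 23.7 CPM in control and 22.4, 25.6 and 24.8 CPM in knockout libraries. These groups overlapped, and the log2 fold change of 0.09 (95% interval -0.07 to 0.25) did not pass the test (edgeR adjusted p = 0.262). With upper-quartile scaling it was 0.18 with an adjusted p of 0.0344, which passes. COL6A3 had 0, 1 and 3 counts in control and 2, 6 and 4 in knockout libraries, and COL6A5 and COL6A6 had at most 4 in any library. COL6A3 and its alternatives were therefore at or near 0 in every library. The ratio of COL6A1 to COL6A2 in FPKM was 0.254, 0.253 and 0.254 in control and 1.29, 1.38 and 1.40 in knockout libraries (exact permutation p = 0.1, the smallest possible). COL6A2 was thus the more abundant of these chains in every control library and the less abundant in every knockout library.

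**Figure D4:**
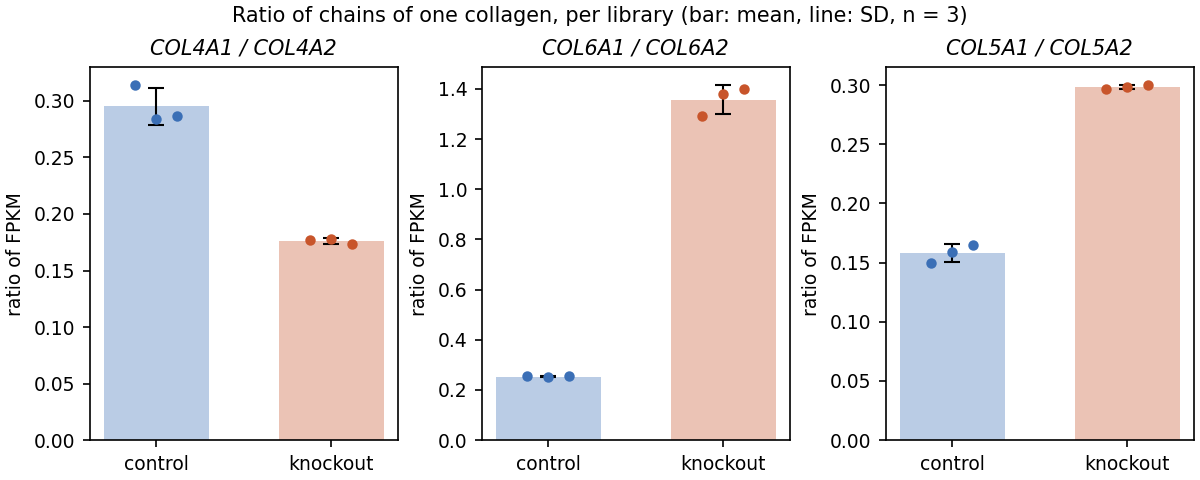
Ratio of FPKM (vertical axes, from 0) between chains of one collagen type in control and knockout libraries. Points are libraries, bars group means and lines SD (n = 3). COL4A1 over COL4A2 goes from 0.295 to 0.176, COL6A1 over COL6A2 from 0.253 to 1.36 and COL5A1 over COL5A2 from 0.158 to 0.298.

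Among the fibrillar collagens, 5 of the 6 tested members rose and none fell, against 42.0% and 43.0% of all tested genes. Of these, COL5A3 passed the filter through the knockout libraries alone. Type V starts fibrils and sets their width, and its chain COL5A2 was the most abundant fibrillar transcript per length in both groups. COL5A1, on chromosome 9 at 134641803 to 134844843, was at 10.9, 11.1 and 12.4 CPM in control and 38.7, 36.9 and 35.7 CPM in knockout libraries. It rose 3.24-fold, by 1.70 ± 0.080 on the log2 scale (edgeR adjusted p = 1.06e-19). COL5A2, on chromosome 2 at 189031898 to 189441111, was at 47.7, 46.1 and 49.7 CPM in control and 84.8, 80.7 and 77.5 CPM in knockout libraries. It rose 1.69-fold, by 0.76 ± 0.057 (edgeR adjusted p = 2.85e-14). For both chains every knockout library was above every control library. The larger rise of COL5A1 shows in the ratio of COL5A1 to COL5A2 in FPKM, which was 0.150, 0.159 and 0.165 in control and 0.297, 0.298 and 0.300 in knockout libraries (exact permutation p = 0.1, the smallest possible). COL5A3 had 4, 6 and 10 counts against 18, 12 and 10 (log2 fold change 1.12 ± 0.436, edgeR adjusted p = 0.0183). Its groups touched at 10 counts, and the call was lost under DESeq2 (adjusted p = 0.0915), on log2(FPKM + 1) (0.061), without control replicate 1 (0.0906) and without knockout replicate 1 (0.108).

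Type I collagen, the main collagen of stroma, was detected through 1 of its chains. COL1A1, on chromosome 17 at 50184101 to 50201631, was at 2.97, 4.03 and 3.19 CPM in control and 12.7, 13.5 and 12 CPM in knockout libraries, with no overlap. It rose 3.74-fold, by 1.90 ± 0.136 (edgeR adjusted p = 9.39e-15). Its partner COL1A2 had 0 counts in all 3 control libraries and 3, 2 and 2 in knockout libraries, too few to test. COL3A1, the type III chain that accompanies type I in soft tissue, had 1, 3 and 1 counts against 2, 5 and 2. Both were near 0 in all 6 libraries. COL27A1, a fibrillar chain known from cartilage, was at 26.0 ± 1.83 CPM in control and 36.2 ± 0.251 CPM in knockout libraries (SD, n = 3). It rose 1.39-fold, by 0.48 ± 0.069 (edgeR adjusted p = 1.58e-07). COL11A2, another cartilage chain, was at 2.96 and 2.36 CPM and did not pass (log2 fold change -0.32, edgeR adjusted p = 0.143).

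COL12A1 and COL16A1, the only FACIT collagens above the filter level in all 6 libraries, both rose, where 42.0% of all tested genes did. COL12A1, whose product binds type I fibrils in tissues under load, was at 35.6, 30.2 and 40.4 CPM in control and 61.0, 62.0 and 57.4 CPM in knockout libraries. It rose 1.70-fold, by 0.76 ± 0.075 (edgeR adjusted p = 5.78e-10). COL16A1, found near fibrils and basement membranes, was at 6.86, 7.49 and 6.80 CPM against 16.9, 19.6 and 17.7 CPM. It rose 2.56-fold, by 1.35 ± 0.106 (edgeR adjusted p = 1.02e-13). For both genes the groups were well apart. The other FACIT members tested, COL21A1 and COL20A1, were near 0 in control libraries and could only be called as higher. COL21A1, on chromosome 6 at 56056590 to 56394128, had 4, 0 and 2 counts in control and 171, 134 and 126 in knockout libraries, which is 9.20, 8.01 and 7.75 CPM there. Its ratio of 79.0 has a wide counting interval, 36.0 to 216.5, and was 159.7 without control replicate 1 and 52.4 without control replicate 2 (edgeR adjusted p = 1.22e-18 with all libraries). COL20A1 had 0, 1 and 5 counts against 48, 48 and 45, a ratio of 25.8 (11.6 to 71.6) that was 102.8 without control replicate 3 and 17.4 without control replicate 1 (edgeR adjusted p = 1.51e-11 with all libraries). Both ratios thus rest on a handful of control counts, though every knockout library was above every control library. COL8A1, which belongs to the hexagonal network collagens, had 0 counts in each control library and 10, 13 and 10 in knockout libraries. That is at least 12.1-fold higher against a floor of 3 counts over the control group (edgeR adjusted p = 1.23e-06).

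The multiplexins went opposite ways on counts. COL18A1, on chromosome 21 at 45405165 to 45513720, is the collagen whose C-terminal fragment is endostatin. It was at 570.2, 551.4 and 598.0 CPM in control and 471.3, 482.2 and 492.7 CPM in knockout libraries, with no overlap, and fell by 0.25 ± 0.041, 1.19-fold (edgeR adjusted p = 1.38e-06). This call depends on the gene length used. The length recovered from FPKM was 6808 bases in control and 6063 in knockout libraries, and mean FPKM was 82.0 and 78.9. The change was -0.06 on log2(FPKM + 0.1) (limma adjusted p = 0.239). It was -0.08 when edgeR took the recovered lengths into account (adjusted p = 0.0607), so neither passed. In GENCODE v29, 16.4% of the exon bases of COL18A1 also lie in exons of SLC19A1 on the opposite strand, and the strand setting of the counting is not given. SLC19A1 was at 53.2 ± 5.03 CPM in control and 24.0 ± 1.47 CPM in knockout libraries. Its part in the COL18A1 value was not tested. COL15A1 had 2, 0 and 3 counts in control and 19, 19 and 14 in knockout libraries, a ratio of 11.4 (4.60 to 36.7) and of 7.59 without control replicate 2 or 19.0 without control replicate 3 (edgeR adjusted p = 1.39e-06 with all libraries). It rose, from under 1 CPM.

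The membrane-anchored and remaining types were expressed at low levels. COL13A1, a transmembrane collagen of adhesion sites and the nerve-muscle junction, had 4, 8 and 7 counts against 27, 31 and 16 and rose (ratio 4.28, 2.56 to 7.51; edgeR adjusted p = 1.03e-05). COL17A1, the hemidesmosome collagen of basal epithelial cells, had 46, 22 and 39 counts against 31, 20 and 29. Its groups overlapped and it did not pass (log2 fold change -0.28, edgeR adjusted p = 0.335). COL26A1 had 2, 5 and 0 counts against 18, 18 and 26 and rose (ratio 9.74, 4.46 to 25.2; 22.6 without control replicate 2 and 6.46 without control replicate 3; edgeR adjusted p = 1.42e-06). COL28A1 had 6, 7 and 14 counts against 8, 9 and 11 and did not pass (0.19, edgeR adjusted p = 0.696). These 4 genes lay below 3 CPM in every library.

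The other 18 members, beside the 25 tested, had 0 to 32 counts summed over the 6 libraries. COL10A1 of hypertrophic cartilage, COL9A1 and COL25A1 had 0 counts in every library. The cartilage and stromal members COL2A1, COL1A2, COL3A1 and COL6A3 were all among these 18. COL9A3 had 0, 12 and 12 counts in control and 0, 0 and 4 in knockout libraries. COL19A1 had 1, 2 and 3 counts against 0 in each, and COL14A1 had 1, 0 and 0 against 3, 7 and 4. With no filter on low counts, COL14A1 (edgeR adjusted p = 0.00483) and COL1A2 (0.0201) were called higher, and COL9A3 (0.00519) and COL19A1 (0.0446) lower, while the other 11 members with any count did not pass. These calls rest on at most 12 counts in a library.

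Of the 31 members with an entry in the promoter table, 18 had a mean of at least 1 CPM in a group. In the 250 bases before the start listed there, 12 of these 18 hold a GC box, against 5 of the other 13 and 42.3% of all promoters. For COL4A4 that window held no GC box, whereas the stretch shown above holds 2. Its start listed there is thus not the one used above. A TATA box is found in 4 of the 18 and 1 of the 13, and a CCAAT box in 4 and 5, against 11.1% and 33.0% of all promoters. The median content of G and C is 65.6% in the expressed and 63.2% in the remaining members, against 58.0% over all promoters. These shares describe few genes and carry no test. Neighbouring members did not follow one pattern: COL4A3 and COL4A4 both rose, COL4A1 fell beside COL4A2, and COL5A2 rose 19.2 kb from COL3A1, which was near 0.

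The genes that make and bind collagen changed in both directions. Chains are hydroxylated and glycosylated in the endoplasmic reticulum, folded with chaperones, exported, trimmed outside the cell and crosslinked, and cells bind them through receptors. Of 54 such genes, 46 were tested, of which 17 rose, 17 fell and 12 did not pass, with a median log2 fold change of -0.01, beside 42.0% and 43.0% of all tested genes. With 85.0% of all tested genes called, a step with most of its genes called is near the background. SERPINH1, the collagen chaperone HSP47, was at 43.3 ± 2.39 CPM in control and 113.8 ± 1.57 CPM in knockout libraries and rose 2.63-fold (edgeR adjusted p = 5.52e-22). BMP1, the protease that removes the C-terminal propeptide of fibrillar collagens and trims type VII, was at 23.3 ± 4.04 and 102.9 ± 3.09 CPM and rose 4.41-fold (edgeR adjusted p = 1.41e-16), with recovered lengths of 5151 and 3958 bases. For both genes every knockout library was above every control library.

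Among 10 tested genes of prolyl hydroxylation and isomerization, which stabilizes the helix, 5 rose, 3 fell and 2 did not pass. Over all tested genes, 42.0% rose and 43.0% fell. The catalytic subunits of prolyl 4-hydroxylase went opposite ways. P4HA1 rose from 35.8 to 50.9 CPM, 1.42-fold, and P4HA2 fell from 65.4 to 28.9 CPM, by 1.18 on the log2 scale. P4HB, their shared subunit, rose from 911.5 to 1226 CPM, by 0.43. P3H2, which 3-hydroxylates basement membrane collagen, fell from 56.0 to 26.2 CPM, by 1.10, and CRTAP, a partner of prolyl 3-hydroxylase 1, rose from 176.6 to 408.9 CPM, by 1.21, with recovered lengths of 6651 and 3852 bases. On log2(FPKM + 0.1), which uses these lengths, the CRTAP change was 2.02. Of 5 tested genes of lysyl hydroxylation and glycosylation, which prepare crosslinks, 4 fell and 1 rose, against 43.0% and 42.0% of all tested genes. Those that fell were the 3 lysyl hydroxylases and the galactosyltransferase COLGALT1, with log2 fold changes of -0.74 for PLOD1, -0.58 for PLOD2, -0.77 for PLOD3 and -0.33 for COLGALT1. COLGALT2, from 9, 2 and 4 counts to 66, 46 and 54, rose. It passed the filter through the knockout libraries alone, so it had to be higher there.

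Of the 5 tested crosslinking genes, 4 fell and none rose, against 43.0% and 42.0% of all tested genes. Of these, LOXL3 passed the filter through the control libraries, as only 1 knockout library reached its level. TGM2, a transglutaminase that crosslinks matrix proteins, was at 1401 ± 167.1 CPM in control and 250.8 ± 5.88 CPM in knockout libraries and fell by 2.48, 5.59-fold (edgeR adjusted p = 9.54e-09). The others that fell were the lysyl oxidases LOXL2 (228.6 to 183.4 CPM, -0.32) and LOXL3 (2.12 to 0.401 CPM, -2.36) and the peroxidase PXDN (-0.28), which crosslinks type IV collagen. LOX itself had 15, 9 and 6 counts against 9, 7 and 13 and was not tested. Of 5 tested chaperones, 3 rose (SERPINH1, FKBP7 and FKBP9) and 2 fell (FKBP10 and FKBP14). FKBP9 went from 80 to 152.7 CPM, by 0.93, and FKBP14 fell from 41.2 to 19.9 CPM, by 1.05. Of 7 tested export genes, 4 rose, 2 fell (SEC23A, -0.33, and TMEM131, -0.32) and 1 did not pass. MIA2, which helps load collagen into carriers, rose from 40.4 to 90.4 CPM, by 1.16. Of 8 tested receptors, 2 rose, 1 fell and 5 did not pass. DDR1, the collagen-binding kinase of epithelia, rose from 175.1 to 194.5 CPM, by 0.15 (edgeR adjusted p = 0.00239), and ITGB1, the shared chain of the collagen integrins, was at 1707 and 1713 CPM and did not pass (edgeR adjusted p = 0.907). PLOD1, PLOD3, COLGALT1, COLGALT2, FKBP7, FKBP9, FKBP10, SEC23A, TMEM131, LOXL2, LOXL3, PXDN and ITGB1 are named after their values were seen.

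**Figure D5:**
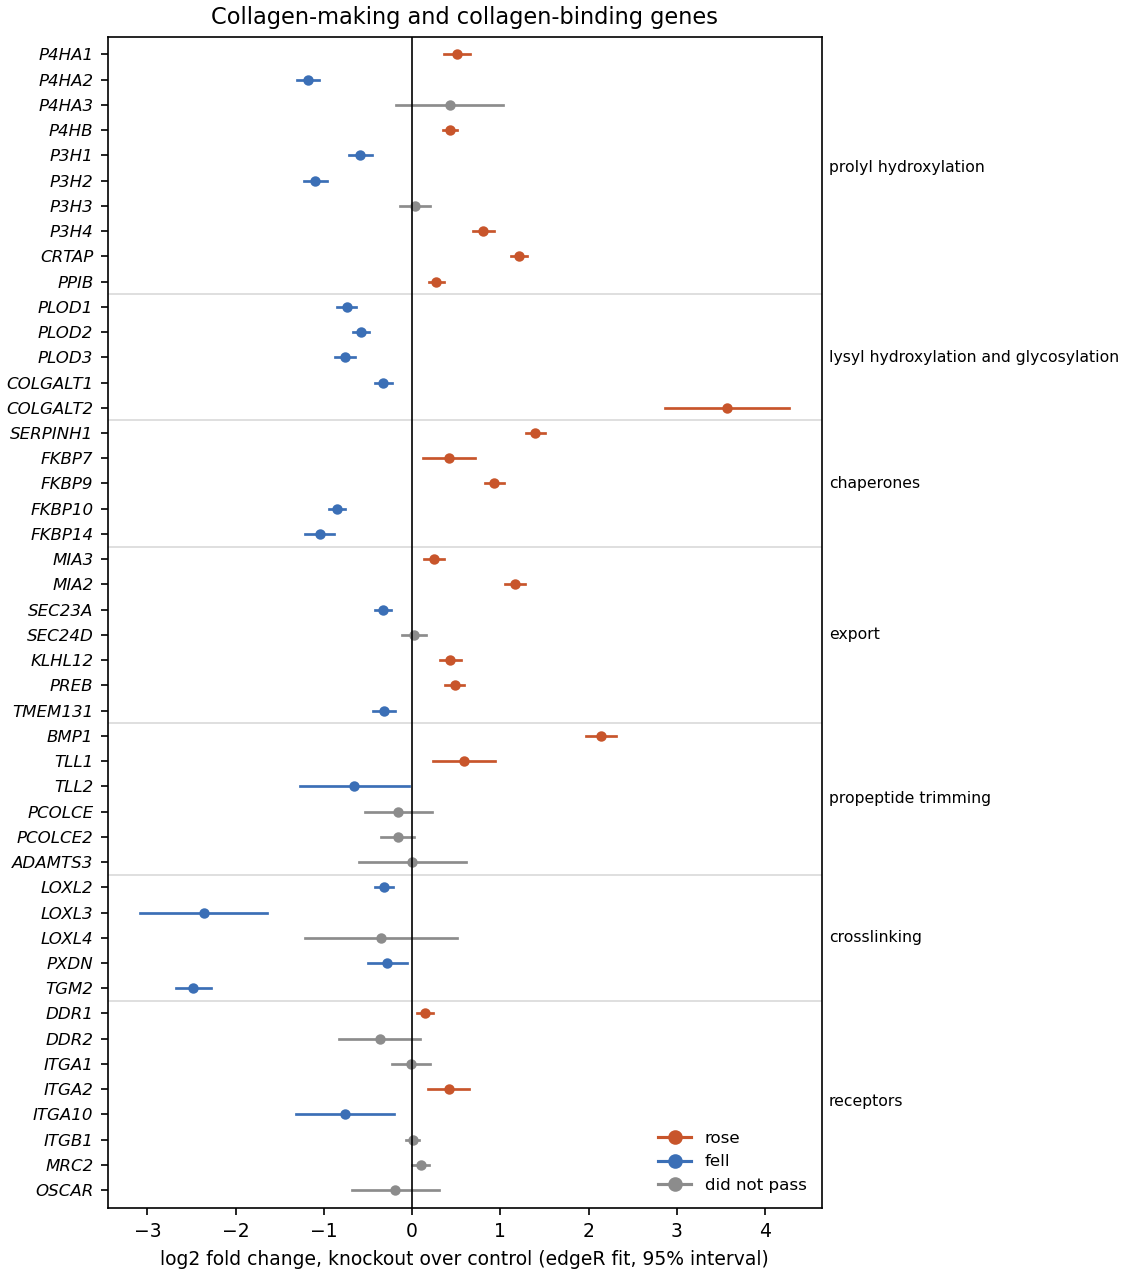
Log2 fold change, knockout over control (horizontal axis), of the 46 tested genes that make or bind collagen, grouped by step. Points are edgeR estimates, lines 95% intervals, and colour gives the call. BMP1 lies at 2.14 and TGM2 at -2.48, and the 17 genes that rose and 17 that fell are spread over the steps.

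Markers of other cell types moved between the groups too. Of 9 fibroblast markers, 7 (DCN, LUM, PDGFRA, PDGFRB, THY1, FAP and POSTN) had at most 10 counts in every library, and the summed level of the list was 23.6 to 25.2 CPM in control and 26.1 to 26.9 CPM in knockout libraries. The other 2 moved in opposite directions: FBN1, fibrillin 1, fell from 22.3 to 16.6 CPM, and TWIST2 rose from 1.3 to 9.19 CPM, 7.01-fold (edgeR adjusted p = 2.11e-16). Summed smooth muscle markers were at 10.3 to 11.8 and 29.8 to 31.1 CPM. ACTA2 made that difference, with 4.71 and 25.2 CPM, while TAGLN was at 6.38 and 5.17 CPM and did not pass, and MYH11, CNN1 and DES had at most 2 counts a library. Summed endothelial markers were at 162.5 to 175.2 and 4.19 to 4.92 CPM. In control libraries nearly all of that sum was ESAM (110.1 CPM, and 2.92 in knockout libraries) and ENG (54.6 and 0.235 CPM). Of the 9 endothelial markers, the 4 tested fell, against 43.0% of all tested genes, and of these CDH5, ENG and ROBO4 passed the filter through the control libraries alone. PECAM1, VWF, TEK and TIE1 had at most 10 counts in every library, and KDR, not tested, had 4, 1 and 0 counts against 5, 8 and 19. Summed chondrocyte markers, mostly SOX9, were at 68.9 to 71.1 and 40.3 to 43.4 CPM, and haematopoietic markers, mostly CD68, at 34.6 to 38.2 and 54.7 to 59.2 CPM. Summed epithelial markers were at 2796 to 2968 and 4684 to 4775 CPM, mostly KRT8 and KRT18, with KRT19 at most 10 counts a library. Of the rest, CDH1 rose from 29.2 to 158.4 CPM, CLDN4 fell from 1.46 to 0.646 CPM, and EPCAM, not tested, had 6 to 12 counts a library. For alveolar type 2 cells, the cell type A549 is taken as a model of, the sums were 81.2 to 87.5 and 83.5 to 95.8 CPM. They were mostly ABCA3, which did not pass, with SFTPA1 and SFTPB at 0 in all libraries. The other tested markers of that list rose, LAMP3 from 1.75 to 4.08 CPM and NAPSA from 0.705 to 1.23 CPM, where 42.0% of all tested genes did. NKX2-1, not tested, had 1, 0 and 0 counts against 11, 5 and 9. The part of all these markers in the collagen values was not tested. In bulk samples fewer cells of a type and less RNA per cell cannot be told apart.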

How the data were processed

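RNA-seq of 3 control and 3 knockout libraries was analysed. Libraries came from total RNA with an mRNA kit, per the labels. Tools listed in the submitters' processing notes are HISAT2 2.2.1.0, Trimmomatic 0.36 and FastQC 0.11.5, and the build is GRCh38; roles are not given. What counted the reads, against which annotation, with which strand setting and filter, is not stated in the sources used here. The authors deposited whole-number read counts per gene symbol and, separately, FPKM. Tests used the deposited counts. The deposited FPKM served for levels per length and as an alternative.

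Counts were tested in R 4.3.3 with edgeR 4.0.16 (filterByExpr, trimmed mean of M values with factors of 0.989 to 1.02, robust glmQLFit and glmQLFTest, two-sided), with Benjamini-Hochberg adjustment over 12929 tested genes and a threshold of 0.05. The test was checked on simulated data in which few genes changed, unlike the many called here. That check does not cover a setting in which most genes change. CPM use the same factors. Total counts were 16018260 to 19357144 per library. Ratios of sparse genes carry exact 95% counting intervals, which, like the floor of 3 counts, cover counting error only. Replicates did not agree within sampling noise. Alternatives used limma 3.58.1 and DESeq2 1.42.0.

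The gene length behind each FPKM, recovered as the whole number that relates it to the count, agreed within 1% between groups for 27 of 35 collagens and for 32.3% of 14582 genes. Whether both groups were counted against the same gene models is not stated, and counts would differ if they were not. All 43 members matched RefSeq's gene table (GRCh38.p14) and 31 its promoter table. The members and lists were chosen with earlier results of these data known. Named were all members with a mean of at least 1 CPM in a group, members that pair with them, collagen-making or collagen-binding genes that passed with at least 5 CPM and a 2-fold change, and SERPINH1, P4HA1, P4HB, PLOD2, LOX, BMP1, DDR1, CDKN2A and CDKN2B. Members below that level are named by counts. 1 gene of a list is not reported here.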

Additional observations from a re-analysis of the deposited data

How the results depend on the processing

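The 17 collagens that rose and 4 that fell were 17 and 4 under DESeq2 and limma-voom, 17 and 3 on log2(FPKM + 0.1), 16 and 3 on log2(FPKM + 1), and 19 and 6 with no filter. Leaving out 1 library in turn gave 15 to 17 and 4 to 5. With a mean of at least 5 CPM required, 8 of 13 rose and 4 fell, beside 4578 and 4661 of all 10776 genes tested so. Among genes whose lengths agree within 1%, 11 of 18 collagens rose and 3 fell. A test against a 2-fold change (glmTreat) left 12 of 25 that rose and 1 that fell. For the collagen-making and collagen-binding genes, glmTreat left 5 that rose and 3 that fell, and equal lengths 4 and 2. For all tested genes these numbers were 2105 and 1453 of 12929 by glmTreat, and 1719 and 1732 of 4057 with equal lengths. With a replicate block 17 collagens rose and 4 fell, and 17 and 16 of the collagen-making and collagen-binding genes; same-numbered libraries did not deviate together (r of 0.02, -0.02 and -0.01), so the numbers pair nothing. COL28A1 ran from -0.025 without control replicate 1 (adjusted p = 0.963) to 0.345 without knockout replicate 1, and the cause was not tested. On log2(FPKM + 1), which understates low genes, COL5A1 was 1.12 and COL16A1 0.89. Of the other scalings, upper-quartile moved the median of all genes most, by 0.087 (log2). Depth limits the members with under about 10 counts a library.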

Other observations

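Genes that surround collagens were looked at after the collagen values were known, so the list and its members are a description. NID1, which links laminin to type IV collagen in the basement membrane, was at 64.0 ± 7.29 CPM in control and 2.63 ± 0.211 CPM in knockout libraries and fell by 4.60 on the log2 scale, 24.2-fold (edgeR adjusted p = 2.82e-26). AGRN, a basement membrane proteoglycan, fell from 642.4 to 311.9 CPM, and HSPG2, perlecan, rose from 65.3 to 119.8 CPM. Of 6 tested genes listed with the epithelial anchoring complex, to which type VII fibrils attach, 1 rose and 3 fell. Of all tested genes 42.0% rose and 43.0% fell. LAMB3 fell from 143.2 to 81.1 CPM, while LAMA3 and DST did not pass. FERMT1 fell with overlapping groups, from 75.9 to 67.3 CPM, and its mean FPKM was 14.2 in control and 14.4 in knockout libraries. ITGB4 was at 68.5 ± 3.56 CPM in control and 476.8 ± 19.1 CPM in knockout libraries and rose 6.96-fold (edgeR adjusted p = 5.14e-32). Its partner ITGA6 fell from 359.0 to 106.0 CPM.

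Of 5 tested genes whose products bind fibrils, 4 rose and 1 fell, against 42.0% and 43.0% of all tested genes. The gene that fell, BGN, passed the filter through the control libraries alone, so it had to be lower in knockout libraries. FN1, fibronectin, was at 131.1 ± 21.8 CPM in control and 756.6 ± 14.2 CPM in knockout libraries and rose by 2.53 (edgeR adjusted p = 2.38e-05). SPARC, which binds fibrillar and type IV collagen, had 14, 17 and 18 counts against 192, 194 and 187 and rose. BGN, biglycan, had 11, 16 and 20 counts in control libraries and 0 in each knockout library, at least 14.2-fold lower against a floor of 3 counts over the group. Of 9 tested genes of other proteins with a collagen-like stretch, 6 rose and 1 fell. Among them EMILIN1, which rose, passed the filter through the knockout libraries alone, and MSR1, which fell, through the control libraries alone. SCARA3 rose from 8.42 to 63.7 CPM and C1QTNF6 from 7.75 to 58.8 CPM, and MSR1, the macrophage scavenger receptor, fell from 59, 40 and 27 counts to 0, 2 and 0.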
